A study of Mus musculus with 6 samples.

Results

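The genes described here are 32 genes of the unfolded protein response and of protein folding in the endoplasmic reticulum (ER), chosen by a list of symbols that uses no measured value, though written with earlier results of these data known, out of 55011 gene symbols in the deposited count table. By role they are 14 chaperones and folding factors, 7 genes of ER-associated degradation, 4 sensors and transcription factors, and 7 genes of the PERK-ATF4 arm, the branch of the response that slows translation and switches on the factor ATF4. RNA was sequenced from whole visceral fat in 3 samples labelled Foxp3.YFP-Cre Bmal1KO and 3 labelled Foxp3.YFP-Cre Bmal1WT, from male C57BL/6 mice 30 weeks old. Every mouse had 14 weeks of low-fat feeding before 16 weeks of high-fat feeding, carried the Cre recombinase fused to YFP under Foxp3, and was sampled at zeitgeber time 0 h, when the lights come on. Foxp3 is the transcription factor of regulatory T cells, so the loss of Bmal1 (Arntl, a core clock factor) was aimed at a small share of the cells whose RNA was measured. The comparison asks how fat differs when those cells lack the clock factor, and each group is 1 genotype at 1 time of day. Whether each numbered sample is a separate mouse is not stated in the labels, and the tests therefore see only the spread among these samples, which may be technical.

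The ER is where secreted and membrane proteins fold. When folding falls behind, 3 sensors in its membrane respond: ATF6 is cut to release a transcription factor, IRE1 (Ern1) splices the mRNA of the transcription factor XBP1, and PERK (Eif2ak3) phosphorylates a translation initiation factor, which favours translation of ATF4. ATF6 and XBP1 raise chaperones and degradation genes, while ATF4 raises genes of amino acid supply and, with prolonged stress, of cell death. Adipocytes secrete large amounts of protein, and obesity is a textbook setting of ER stress in fat. All of these sensors are switched on by cleavage, splicing or phosphorylation, so that their mRNA levels do not measure their activity, and counts per gene do not separate spliced from unspliced Xbp1.

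Promoters of these genes hold short elements known from the branches of the response. The ER stress response element (ERSE), read by NF-Y with ATF6 or XBP1, is CCAAT, then 9 bases, then CCACG. It was found on either strand in 9 of the 28 genes with a RefSeq promoter window (250 bases before to 50 after the start, GRCm38.p6), or 32.1%. Over all 27025 genes with a window, these 28 included, it was in 37, or 0.137%. Since the element is known from this response, its share here describes the promoters and tests nothing. Of the 9 genes with an ERSE, 7 are chaperones and 2 act in ER-associated degradation. Some of them and the main ATF4-type sites are printed below, 5′ to 3′ in the direction of the element, with the fixed letters of the element in capitals and 5 flanking bases on each side.
Hspa5 ERSE, chr2:34772020-34772048, plus strand: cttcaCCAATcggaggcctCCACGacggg
Hsp90b1 ERSE, chr10:86705528-86705556, plus strand, of a gene on the minus strand: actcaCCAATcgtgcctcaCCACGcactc
Creld2 ERSE, chr15:88819515-88819543, minus strand, of a gene on the plus strand: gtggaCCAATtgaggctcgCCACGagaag
Syvn1 ERSE, chr19:6046527-6046555, plus strand: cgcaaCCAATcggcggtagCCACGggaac
Herpud1 ERSE-II, chr8:94386372-94386392, plus strand: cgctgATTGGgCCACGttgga
Trib3 CARE, chr2:152344034-152344051, plus strand, of a gene on the minus strand: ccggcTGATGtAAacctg
Asns CARE, chr6:7693220-7693237, minus strand: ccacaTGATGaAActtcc
Chac1 CARE, chr2:119351044-119351061, minus strand, of a gene on the plus strand: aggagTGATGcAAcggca

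ERSE-II (ATTGG, 1 base, CCACG) shares its last 5 letters with ERSE and was found in Herpud1 and Dnajb11, 2 of the 28 genes (7.14%), against 12 of all genes (0.0444%). The CARE, or C/EBP-ATF response element, searched as TGATGNAA on both strands and bound by ATF4 with a C/EBP partner, was in 4 of the 28 genes (14.3%) against 1219 of all genes (4.51%). Its holders were Trib3, Asns and Chac1 of the PERK-ATF4 arm and Herpud1, the 1 gene here with both ERSE-II and CARE. An XBP1-type element, searched as TGACGTGG, whose reverse complement holds the same CCACG, was in 0 of the 28 genes, against 193 of all genes (0.714%). The other ERSE holders were Calr, Canx, Pdia6, Dnajc3 and Derl3, and Hsp90b1 held a second one. The RefSeq start of Hspa5 lies inside the GENCODE span of the gene given below, so its ERSE does too. A match describes the letters in this window and not binding. The genes Atf6, Derl1, Hyou1 and Manf had no entry in the promoter table.

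Library totals ran from 6514620 to 8678772 counts in Bmal1KO and from 8779413 to 9529198 in Bmal1WT, so that a floor of 3 counts equalled 0.323 to 0.451 CPM (counts relative to the library total, scaled by TMM). This floor covers counting error only. Bmal1KO replicate 1, the shallowest library, had counts on 30019 genes, against 19009 to 20145 in the other 5. Markers of fat were present at 23004 to 45315 CPM in sum over 17 adipocyte genes in Bmal1KO and at 35982 to 44752 CPM in Bmal1WT, with none at 0. Arntl was at 40.1 ± 8.06 CPM in Bmal1KO and 33.2 ± 6.16 CPM in Bmal1WT (SD, n = 3 each; adjusted p = 0.719, edgeR's quasi-likelihood test), and Foxp3 had 0 to 3 counts in every library, so whole-tissue RNA checks the genotype labels only weakly. Bmal1WT replicate 1 carried 515 CPM in sum over 27 genes of epididymis and testis, the organs this fat pad touches, against 1.81 to 7.67 CPM in the Bmal1KO libraries and 0.753 and 1.87 CPM in the other Bmal1WT libraries. Defb29, Bsph1, Tnp1 and Odf1 of that list were at 0 in all libraries. In Bmal1WT replicate 1, 17 of the 27 genes had a count, and Prm1 and Prm2 were also at 0 there.

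Between the genotypes, no gene of the response passed the test in either direction. All 32 passed the filter on low counts, and 0 had an adjusted p under 0.05 in edgeR's quasi-likelihood test (Benjamini-Hochberg over the 13859 genes tested; the smallest of the 32 was adjusted p = 0.458), against 0% of all genes tested. DESeq2 and limma voom also called 0 of the 32. At an unadjusted p under 0.05 edgeR gave 1 gene, Trib3, a share of 3.12%, against 9.31% of all genes tested. Levels were higher in Bmal1KO for 17 genes and lower for 15, with a median log2 fold change (Bmal1KO over Bmal1WT) of 0.02, beside 0.02 over all genes that passed the filter. The 3 Bmal1KO libraries did not overlap with the 3 Bmal1WT libraries for 6 genes (18.8%), against 15.7% of all genes tested. Of these, 3 (Atf4, Atf6 and Syvn1) were higher in all Bmal1KO libraries, against 7.83% of all genes tested, and 3 (Trib3, Asns and Herpud1) were lower, against 7.85%. Summed markers of T cells and of mast cells lay apart between the same groups, and those of endothelium overlapped. All 17 T cell markers and all 8 mast cell markers tested were higher in Bmal1KO (median log2 fold changes 1.90 and 1.60). All 15 endothelial markers were lower (-0.65). Groups did not overlap for 10 (58.8%), 5 (62.5%) and 3 (20%) of these markers, in that order, against 15.7% of all genes tested. In sum, T cell markers were at 139, 297 and 216 CPM in Bmal1KO and 37.4, 102 and 71.0 CPM in Bmal1WT, mast cell markers at 266 to 417 CPM in Bmal1KO and 74.4 to 158 in Bmal1WT, and endothelial markers at 372 to 632 CPM in Bmal1KO and 532 to 1130 in Bmal1WT. No marker of these lists was at 0 in all libraries, and their part in the 6 genes was not tested. For 29 of the 32 genes the 95% interval of the fold change lay within 1 log2 unit on either side of 0, and the exceptions were Derl3, Trib3 and Chac1. In whole tissue, fewer cells of a type and less RNA per cell cannot be told apart.

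**Figure D1:**
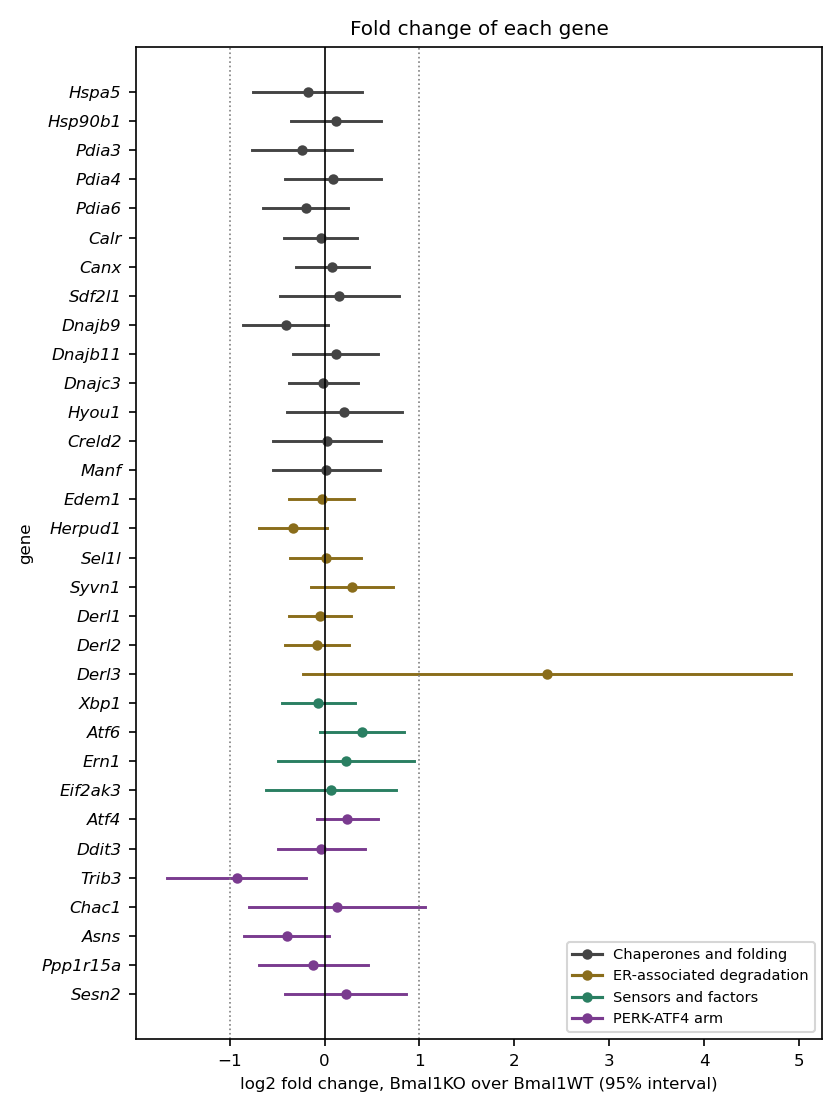
Log2 fold change of each gene, Bmal1KO over Bmal1WT (points), with its 95% interval from edgeR (lines), grouped by role; dotted lines mark -1 and 1. The intervals of 29 of 32 genes stay between the dotted lines, and the Trib3 interval, -1.66 to -0.20, is the only one that leaves out 0.

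Among the chaperones, 8 of 14 were higher and 6 lower in Bmal1KO, with a median log2 fold change of 0.02, and the groups overlapped for every one of them. Hspa5 (ENSMUSG00000026864.13, chromosome 2, 34771970 to 34777547, plus strand; GENCODE M21, mm10) encodes BiP, the Hsp70 of the ER lumen, which holds unfolded chains and keeps the sensors inactive. It stood at 963, 1422 and 1269 CPM in Bmal1KO replicates 1 to 3, against 1979, 1052 and 1106 CPM in Bmal1WT replicates 1 to 3. Bmal1WT replicate 1 was thus the highest of the 6 libraries and Bmal1KO replicate 1 the lowest, with the groups overlapping, and the fold change was -0.18 (log2, SE 0.26; adjusted p = 0.854, edgeR's quasi-likelihood test). Per kb of exon, Hspa5 was the most abundant of the 32 genes, at 288 ± 55.3 CPM per kb in Bmal1KO and 326 ± 123 in Bmal1WT (SD, n = 3 each). Pdia3 followed at 226 ± 38.8 CPM per kb in Bmal1KO and 267 ± 88.9 in Bmal1WT, so that in Bmal1WT the levels of these neighbours differed by less than their SD. By the mean over all 6 libraries, the sensor genes Eif2ak3 and Ern1 came last, both at or under 1.79 CPM per kb in both groups. In Bmal1WT alone, Derl3 lay below both, at 0.669 ± 1.01 CPM per kb.

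The other abundant folding genes had the same profile over the libraries. Hsp90b1, which encodes the ER Hsp90 GRP94, stood at 549, 724 and 732 CPM in Bmal1KO and 809, 517 and 522 CPM in Bmal1WT. Pdia3, a disulfide isomerase that acts on glycoproteins, stood at 575, 748 and 810 CPM in Bmal1KO and 1161, 686 and 671 CPM in Bmal1WT. Each gene was highest in Bmal1WT replicate 1, and within Bmal1KO each was lowest in replicate 1. The disulfide isomerases Pdia4 (164 to 231 CPM in Bmal1KO, 147 to 260 in Bmal1WT) and Pdia6 (367 to 471 in Bmal1KO, 389 to 612 in Bmal1WT) repeated this order of the extremes. So did the lectin chaperone Calr, with 333 to 434 CPM in Bmal1KO and 361 to 465 in Bmal1WT. Its membrane-bound relative Canx, at 309 to 397 CPM in Bmal1KO and 290 to 390 in Bmal1WT, was highest in Bmal1KO replicate 3 instead. Intervals of the log2 fold change of all 14 chaperones lay between -0.86 and 0.82, so that a 2-fold difference in either direction was outside every one of them.

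Less abundant folding factors also varied between libraries. Sdf2l1, a partner of ER Hsp40 proteins, stood at 46.8, 101 and 82.5 CPM in Bmal1KO and 90.8, 52.7 and 63.1 CPM in Bmal1WT. Its lowest and highest values both lay in Bmal1KO. Creld2, a folding factor raised by ER stress, stood at 66.0, 111 and 91.3 CPM in Bmal1KO and 121, 63.0 and 80.1 CPM in Bmal1WT. Manf, a secreted factor raised by ER stress, stood at 89.2, 140 and 102 CPM in Bmal1KO and 154, 91.7 and 80.7 CPM in Bmal1WT. For both, Bmal1WT replicate 1 was the highest library. Their log2 fold changes were 0.16 (SE 0.28) for Sdf2l1, 0.02 (SE 0.26) for Creld2 and 0.02 (SE 0.26) for Manf.

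Of the ER Hsp40 genes, Dnajb9 and Dnajc3 were highest in Bmal1WT replicate 1, as Hspa5 was, while Dnajb11 and also Hyou1 were not. Dnajb9, an Hsp40 that XBP1 raises, stood at 73.5, 67.7 and 52.4 CPM in Bmal1KO and 107, 71.0 and 79.5 CPM in Bmal1WT. Only Bmal1KO replicate 1 reached into the Bmal1WT range, and the log2 fold change of -0.41 (SE 0.20) stayed short of the threshold in edgeR's quasi-likelihood test (adjusted p = 0.559). Dnajb11 ran from 55.5 to 76.1 CPM in Bmal1KO and 51.4 to 76.7 in Bmal1WT, and Dnajc3, the Hsp40 that also restrains PERK, from 116 to 143 in Bmal1KO and 112 to 144 in Bmal1WT. Hyou1, the nucleotide exchange factor of BiP, ran from 11.8 to 19.7 CPM in Bmal1KO and 12.9 to 14.7 in Bmal1WT and was highest in Bmal1KO replicate 1. Of the 14 chaperones, Dnajb11 was the 1 gene not higher in Bmal1WT replicate 1 than in the mean of the other Bmal1WT libraries.

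The chaperones therefore differed more between libraries of one genotype than between genotypes. Bmal1WT replicate 1 was the highest of the 6 libraries for 10 of 14 chaperones (71.4%), against 16.5% of all genes tested. Within Bmal1KO, replicate 1 lay below the mean of replicates 2 and 3 for 11 of 14, against 6513 of all 13859 genes tested. The median log2 difference was -0.41 over the 14, against 0.04 over all genes tested. Within Bmal1WT, replicate 1 lay above the mean of the other Bmal1WT libraries by a median of 0.62 log2 units, against a median of 0.02 over all genes tested. For Hspa5 the CPM of replicate 1 was 0.715 times the mean of the other replicates in Bmal1KO and 1.83 times in Bmal1WT. The 7 chaperones with an ERSE exceeded the other Bmal1WT libraries by 0.27 to 0.88 log2 units in Bmal1WT replicate 1. The 5 with a window and no ERSE (Pdia3, Pdia4, Sdf2l1, Dnajb9 and Dnajb11) ran from -0.40 to 0.78 there, so these ranges overlapped.

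**Figure D2:**
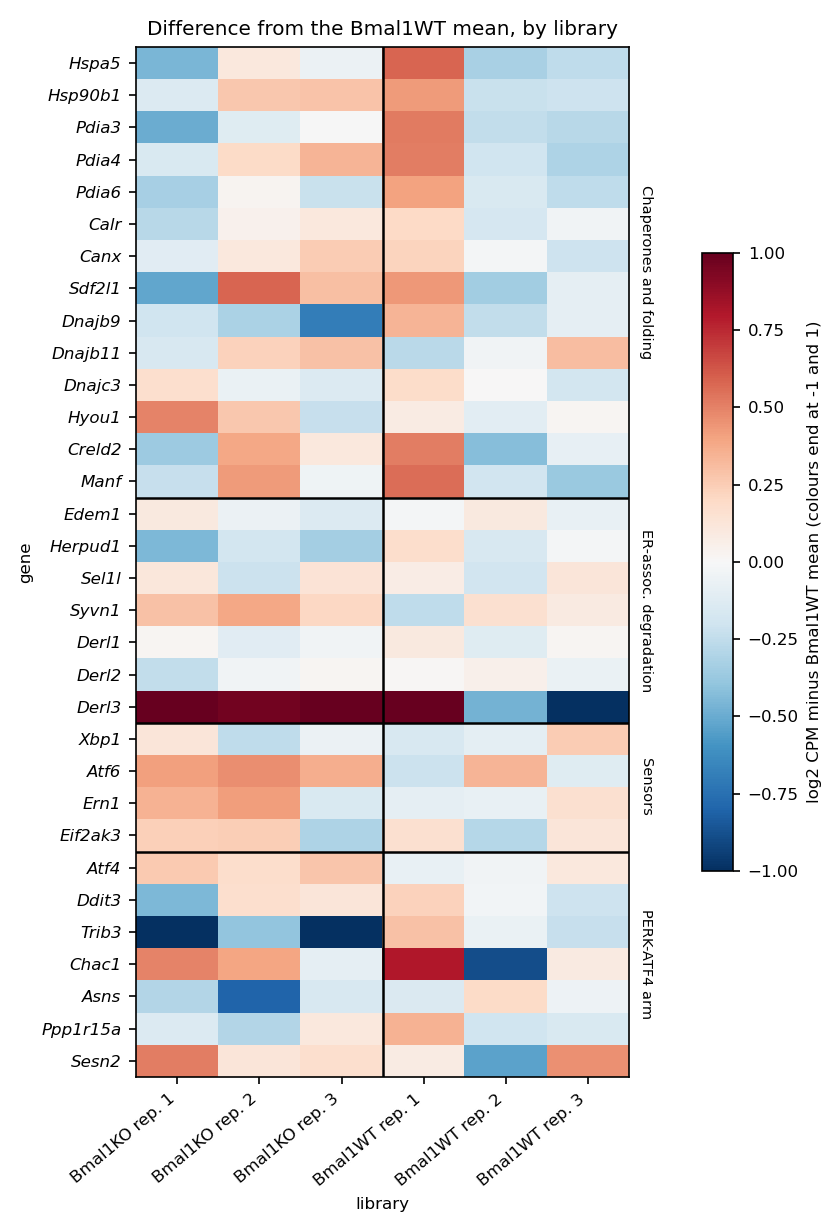
Log2 CPM of each gene in each library minus the mean of the Bmal1WT libraries (colour, ending at -1 and 1), with genes ordered by role and Bmal1KO left of Bmal1WT. In the chaperone block Bmal1WT replicate 1 is the reddest column, highest of the 6 for 10 of 14 genes (71.4%). Bmal1KO replicate 1 is mostly blue there, lowest of the 6 for 5 (35.7%). Over all genes tested these shares are 16.5% and 18.0%. No such column runs through the sensors.

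The direction of the chaperones depended on single libraries. Without Bmal1WT replicate 1, 12 of 14 chaperones were higher in Bmal1KO, with a median log2 fold change of 0.19. Without Bmal1WT replicate 2 or without replicate 3, 4 of 14 were higher, with medians of -0.05 and -0.06. Without Bmal1KO replicate 1, 2 or 3, 9, 6 and 7 of 14 were higher, with medians of 0.11, -0.09 and -0.0062. Over all 32 genes, 24 were higher without Bmal1WT replicate 1 and 10 without Bmal1WT replicate 2, and 0 passed the test in any of these fits. The epididymal RNA lay in the same library as the chaperone maximum. The summed level of 13 stromal progenitor markers (Pdgfra, Dpp4, collagens and others, none at 0 in all libraries) was 5406, 7038 and 7823 CPM in Bmal1KO and 8057, 5343 and 5469 CPM in Bmal1WT. It too was highest in Bmal1WT replicate 1, and Bmal1KO replicate 1 was the lowest of its group. Macrophage markers (17, none at 0 in all libraries) summed to 10880, 19706 and 24111 CPM in Bmal1KO and 16717, 16009 and 12574 CPM in Bmal1WT. They were lowest of all in Bmal1KO replicate 1, where 16 of 17 lay below the mean of the other Bmal1KO libraries, and in Bmal1WT highest in replicate 1. The part of any of these in the chaperone levels was not tested. A list of 25 translocon, signal peptidase and glycosyl transfer genes, which feed proteins into the ER, was highest in Bmal1WT replicate 1 for 18 of 25 genes, and a list of 19 cytosolic heat shock genes for 10 of 19.

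**Figure D3:**
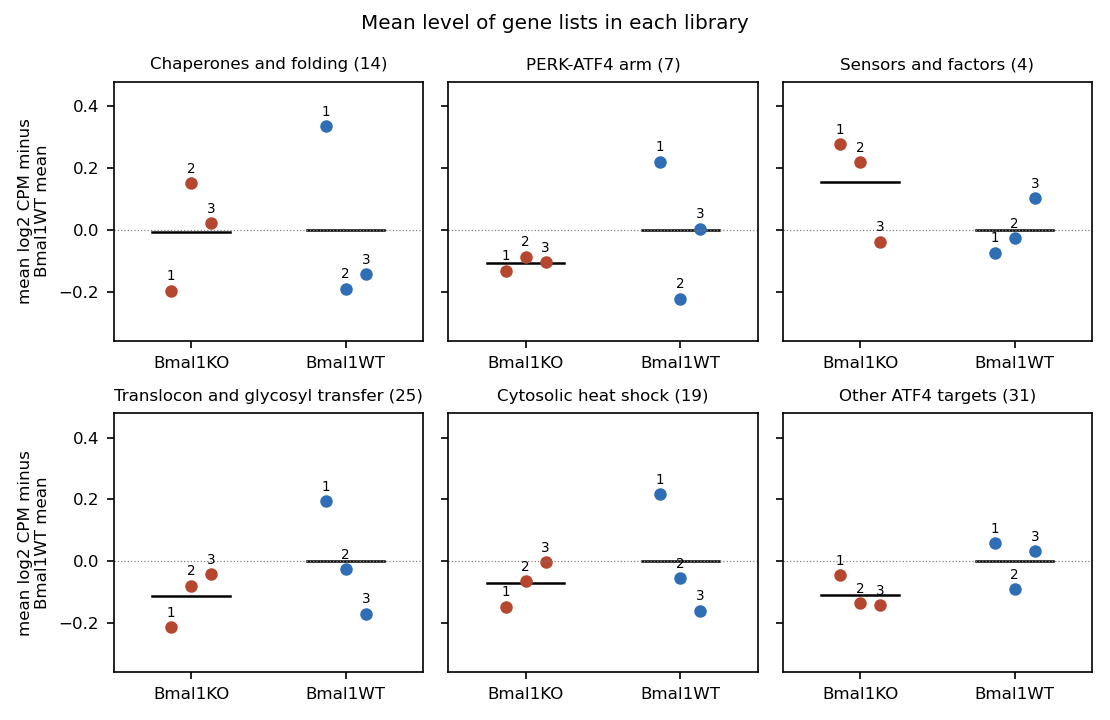
Mean over the genes of a list (number in the panel title) of log2 CPM minus the Bmal1WT mean, 1 point per library with its replicate number, Bmal1KO left and Bmal1WT right; bars are group means. Chaperones lie at -0.20, 0.15 and 0.02 in Bmal1KO and at 0.34, -0.19 and -0.14 in Bmal1WT, and the groups overlap in all 6 panels.

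In ER-associated degradation, which pulls misfolded proteins out of the ER for the proteasome, 3 of 7 genes were higher in Bmal1KO and 4 lower, with a median log2 fold change of -0.03. Herpud1 (ENSMUSG00000031770.16, chromosome 8, 94386438 to 94395377, plus strand), a scaffold of the degradation complex, stood at 74.0, 88.9 and 79.8 CPM in Bmal1KO and 115, 90.6 and 100 CPM in Bmal1WT. All Bmal1KO values lay below all Bmal1WT values, though Bmal1KO replicate 2 and Bmal1WT replicate 2 nearly met, and the log2 fold change of -0.33 (SE 0.16) stayed short of the threshold in edgeR's quasi-likelihood test (adjusted p = 0.557). Syvn1 (ENSMUSG00000024807.18, chromosome 19, 6046576 to 6053712, plus strand) encodes HRD1, the ubiquitin ligase of that complex. It stood at 36.2, 38.7 and 34.1 CPM in Bmal1KO and 24.8, 33.0 and 31.5 CPM in Bmal1WT, higher in all Bmal1KO libraries by 0.29 log2 units (SE 0.20; adjusted p = 0.662 by the same test). These partners thus lay on opposite sides, neither past the test. Exons of Syvn1 overlap those of Mrpl49 on the other strand, and the libraries do not mark strand. The same holds for Hsp90b1 with 1810014B01Rik, Pdia3 with Catsper2, Pdia6 with Atp6v1c2, Dnajb9 with Mir5627 and Manf with Dcaf1 and 4930524O07Rik. It also holds for Derl2 with Mis12, Eif2ak3 with Gm43292, Ppp1r15a with Tulp2 and Ddit3 with Mars and Gm4189. On the same strand, exons of Hsp90b1 overlap those of Gm15344 and Gm25745, exons of Pdia4 those of Mir704 and exons of Manf those of Rbm15b.

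The rest of that group had log2 fold changes between -0.08 and 0.01, apart from Derl3. Sel1l, the adaptor of HRD1, was at 101 ± 13.3 CPM in Bmal1KO and 100.1 ± 11.2 in Bmal1WT, and Edem1, a lectin that hands over misfolded glycoproteins, at 75.9 ± 6.30 and 77.6 ± 4.88 CPM in these groups (SD, n = 3 each). Among the membrane proteins of the export channel, the log2 fold change was -0.04 (SE 0.15) for Derl1 and -0.08 (SE 0.15) for Derl2. Derl3 (ENSMUSG00000009092.5, chromosome 10, 75893413 to 75895941, plus strand), a relative of both and the one highest in secretory cells, had 55, 12 and 86 counts in Bmal1KO, against 32, 3 and 0 counts in Bmal1WT. That is 8.27, 1.36 and 10.7 CPM in Bmal1KO and 3.65, 0.352 and 0 CPM in Bmal1WT, so the groups overlapped, and 2 of the Bmal1WT libraries were at or under the floor. Its log2 fold change of 2.34 had an interval from -0.23 to 4.91 (adjusted p = 0.559, edgeR's quasi-likelihood test), and leaving out a library moved it between 1.75 and 5.32, the value without Bmal1WT replicate 1. Its adjusted p ran from 0.077 (no filter) to 0.792 over the alternatives.

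Plasma cell markers were set beside Derl3. The summed level of 16 plasma cell markers was 4725, 950 and 8506 CPM in Bmal1KO and 1821, 1801 and 2062 CPM in Bmal1WT, with none at 0 in all libraries. Jchain, which joins secreted antibodies, had 1982, 36 and 4725 counts in Bmal1KO and 346, 170 and 104 counts in Bmal1WT. In Bmal1KO, 8 of the 16 markers put the libraries in the order of Derl3, among them Jchain, Igkc and Ighm. Others did not: Prdm1, a transcription factor of plasma cells, was at 4.06, 8.49 and 1.86 CPM and Irf4, another, at 9.62, 14.8 and 14.4 CPM in Bmal1KO, highest in replicate 2, where Derl3 was lowest. In Bmal1WT, Jchain was the 1 marker of 16 in the order of Derl3. The part of plasma cells in the Derl3 level was not tested. Xbp1, which plasma cells also use heavily, was highest of all libraries in Bmal1WT replicate 3 and lowest in Bmal1KO replicate 2. Within Bmal1KO, Derl3 was lowest in replicate 2 too, while Xbp1 was highest in replicate 1 and Derl3 in replicate 3.

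The sensors and their transcription factors had a median log2 fold change of 0.15, with 3 of 4 higher in Bmal1KO. Atf6 (ENSMUSG00000026663.6, chromosome 1, 170704674 to 170867771, minus strand) stood at 42.4, 44.1 and 41.2 CPM in Bmal1KO and 27.5, 40.4 and 29.3 CPM in Bmal1WT. The Bmal1KO libraries lay close together and above all Bmal1WT libraries, of which replicate 2 came near them. The difference of 0.39 log2 units (SE 0.20) stayed short of the threshold in edgeR's quasi-likelihood test (adjusted p = 0.565). Xbp1 stood at 319, 246 and 281 CPM in Bmal1KO and 262, 275 and 350 CPM in Bmal1WT, with overlap and a log2 fold change of -0.07 (SE 0.18). Ern1 stood at 10.1, 10.6 and 7.07 CPM in Bmal1KO and 7.41, 7.50 and 8.82 CPM in Bmal1WT. Eif2ak3 stood at 12.0, 12.1 and 8.19 CPM in Bmal1KO and 11.4, 8.32 and 11.1 CPM in Bmal1WT. For both sensors Bmal1KO replicate 3 was the lowest of all 6 libraries.

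In the PERK-ATF4 arm Atf4 and its targets Trib3 and Asns lay on opposite sides, none of them past the adjusted threshold. Atf4 (ENSMUSG00000042406.8, chromosome 15, 80255184 to 80257541, plus strand) stood at 128, 121 and 130 CPM in Bmal1KO and 101, 104 and 115 CPM in Bmal1WT, higher in all Bmal1KO libraries by 0.24 log2 units (SE 0.15; adjusted p = 0.633, edgeR's quasi-likelihood test). Trib3 (ENSMUSG00000032715.9, chromosome 2, 152337422 to 152344032, minus strand), a pseudokinase that ATF4 raises and that feeds back on it, stood at 6.47, 12.6 and 7.32 CPM in Bmal1KO and 20.4, 15.8 and 14.1 CPM in Bmal1WT. Every Bmal1KO value lay below every Bmal1WT value, at 0.526 times the Bmal1WT level. The log2 fold change of -0.93 (SE 0.33) had the smallest p of the 32 genes (adjusted p = 0.458 by edgeR's quasi-likelihood test). Asns (ENSMUSG00000029752.12, chromosome 6, 7675169 to 7693254, minus strand), asparagine synthetase, stood at 52.0, 36.6 and 57.2 CPM in Bmal1KO and 57.8, 72.8 and 61.7 CPM in Bmal1WT, lower in all Bmal1KO libraries by a log2 fold change of -0.40 (SE 0.20; adjusted p = 0.564). Its Bmal1KO replicate 3 and Bmal1WT replicate 1 nearly met. Both Trib3 and Asns hold the CARE printed above, and so does Chac1.

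Chac1 did not share the side of Trib3 and Asns. This glutathione-degrading enzyme stood at 12.6, 11.8 and 8.31 CPM in Bmal1KO and 15.6, 4.69 and 9.47 CPM in Bmal1WT, so that the highest and the lowest library were both Bmal1WT and the log2 fold change was 0.13 (SE 0.42). Ddit3 encodes CHOP, the death-linked factor of prolonged stress. It stood at 42.7, 65.7 and 63.4 CPM in Bmal1KO and 68.4, 57.2 and 50.6 CPM in Bmal1WT, and its exons overlap those of Mars on the other strand. Ppp1r15a (GADD34), which reverses the block on translation, ran from 14.8 to 19.6 CPM in Bmal1KO and 15.8 to 23.3 in Bmal1WT. Sesn2, a stress protein that restrains mTORC1, was at 21.2 ± 3.27 CPM in Bmal1KO and 18.1 ± 6.03 in Bmal1WT (SD, n = 3 each). Their log2 fold changes were -0.03 (SE 0.21) for Ddit3, -0.12 (SE 0.26) for Ppp1r15a and 0.22 (SE 0.29) for Sesn2. The arm as a whole had 3 genes higher and 4 lower in Bmal1KO.

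**Figure D4:**
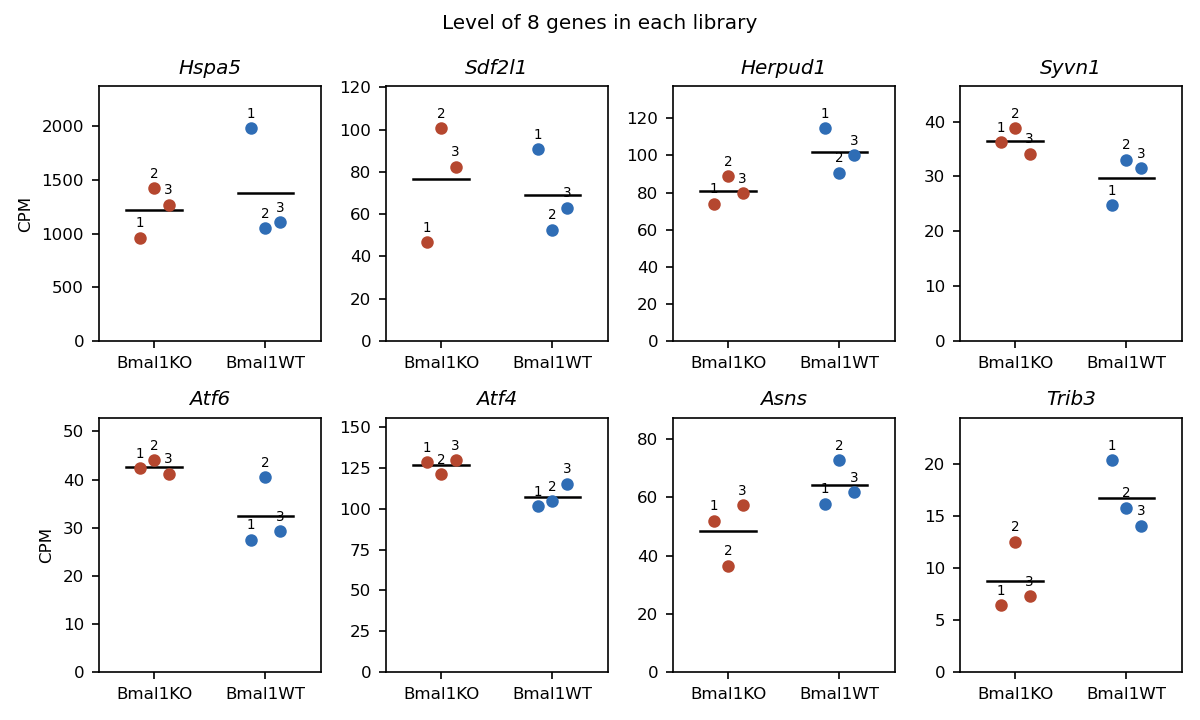
CPM of 8 genes in each library (points with replicate number; bars are group means; each axis starts at 0), Bmal1KO left and Bmal1WT right. Groups overlap for Hspa5 and Sdf2l1; Syvn1, Atf6 and Atf4 are higher and Herpud1, Asns and Trib3 lower in all Bmal1KO libraries, none past edgeR's test after adjustment.

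A wider list of ATF4 targets gave counts of the same kind. Of 35 listed, 31 were tested, 11 were higher in Bmal1KO and 20 lower, with a median log2 fold change of -0.11, and 0 of them passed. Groups did not overlap for 4 of the 31 (12.9%), against 15.7% of all genes tested. Of these 4, 1 was higher and 3 were lower in all Bmal1KO libraries. An unadjusted p under 0.05 in edgeR's quasi-likelihood test was reached by 3 of the 31 (9.68%), against 9.31% of all genes tested. Psat1, an enzyme of serine synthesis, stood at 248, 197 and 153 CPM in Bmal1KO and 320, 282 and 341 CPM in Bmal1WT. Eif4ebp1, a brake on translation, stood at 520, 360 and 300 CPM in Bmal1KO and 527, 559 and 548 CPM in Bmal1WT. Both were lower in all Bmal1KO libraries, with log2 fold changes of -0.66 (SE 0.19; adjusted p = 0.414, edgeR's quasi-likelihood test) and -0.47 (SE 0.21; adjusted p = 0.521). Gdf15, a secreted stress signal, lay on the other side at 11.3, 7.25 and 16.5 CPM in Bmal1KO and 7.99, 4.57 and 4.09 CPM in Bmal1WT (log2 fold change 1.07, SE 0.41; adjusted p = 0.477). The summed adipocyte markers were 45315, 28700 and 23004 CPM in Bmal1KO and 35982, 41585 and 44752 CPM in Bmal1WT. Psat1 and Eif4ebp1 put the Bmal1KO libraries in the same order as those markers, and Trib3 and Asns did not. In Bmal1WT none of these genes put the libraries in the order of the markers. The part of adipocyte content in these levels was not tested.

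Sorted by branch, an assignment made after the values were seen, the 3 arms gave medians close to 0. The ATF6 branch (Atf6, Hspa5, Hsp90b1, Pdia4, Calr, Hyou1, Creld2, Manf, Sdf2l1 and Herpud1) had 7 of 10 genes higher in Bmal1KO and a median log2 fold change of 0.06. The IRE1-XBP1 branch (Ern1, Xbp1, Dnajb9, Dnajb11, Dnajc3 and Edem1) had 2 of 6 higher and a median of -0.02. The PERK-ATF4 branch, with Eif2ak3 added to its 7 genes, had 4 of 8 higher and a median of 0.02. Pdia3, Pdia6, Canx, Sel1l, Syvn1, Derl1, Derl2 and Derl3 were put in no branch. Their values do not enter these counts and medians, which another assignment would change. No difference between branches was tested. Mean log2 differences from the Bmal1WT mean over the ATF6 genes were -0.17, 0.25 and 0.08 in Bmal1KO and 0.33, -0.18 and -0.15 in Bmal1WT. Over the IRE1-XBP1 genes they were 0.06, -0.01 and -0.15 in Bmal1KO and within 0.06 of 0 in each Bmal1WT library. Over the PERK-ATF4 genes they were -0.09, -0.05 and -0.13 in Bmal1KO and 0.21, -0.23 and 0.02 in Bmal1WT. Bmal1WT replicate 1 was the highest library for 7 of 10 ATF6 genes, 2 of 6 IRE1-XBP1 genes and 4 of 8 PERK-ATF4 genes.

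Other genes of the ER folding pathway numbered 130, of which 126 were tested and 0 passed. There, 49 were higher and 77 lower in Bmal1KO, with a median log2 fold change of -0.08. Groups did not overlap for 20 of them (15.9%), against 15.7% of all genes tested. Of those 20, 4 were higher and 16 lower in all Bmal1KO libraries, against 7.83% and 7.85% of all genes tested. An unadjusted p under 0.05 was reached by 11 of the 126 (8.73%), against 9.31% of all genes tested. Sil1, the second nucleotide exchange factor of BiP, stood at 85.4, 76.3 and 71.6 CPM in Bmal1KO and 120, 110 and 120 CPM in Bmal1WT, lower in all Bmal1KO libraries (log2 fold change -0.59, SE 0.15; adjusted p = 0.414, edgeR's quasi-likelihood test). Dnajc10, an ER reductase of the Hsp40 family, stood at 74.9, 53.0 and 83.5 CPM in Bmal1KO and 51.6, 46.6 and 37.9 CPM in Bmal1WT, higher in all Bmal1KO libraries (0.64, SE 0.21; adjusted p = 0.428). Qsox1, a sulfhydryl oxidase, had a log2 fold change of -0.45 with overlap.

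In the remaining pathway lists the 3 genes of smallest p of each list stayed short of the adjusted threshold. An unadjusted p under 0.05 was reached by Spcs3, Rpn2, Ufd1 and Eif2s1 and not by the other 5. Of the translocon list, Spcs3 (signal peptidase) was at 0.55 and higher in all Bmal1KO libraries, Rpn2 (oligosaccharyl transferase) at -0.35 and lower in all, and Ssr1 (translocon-associated protein) at -0.38 with overlap. Among other degradation genes, Ufd1 (-0.39) and Rnf5 (-0.28) were lower in all Bmal1KO libraries and Nploc4, the partner of Ufd1 in extraction, was at 0.35 with overlap. Among other sensors and stress factors, Eif2s1, which encodes the eIF2 subunit that PERK phosphorylates, stood at 81.9, 89.5 and 104 CPM in Bmal1KO and 131, 133 and 105 CPM in Bmal1WT, a log2 fold change of -0.42 (SE 0.17; adjusted p = 0.477, edgeR's quasi-likelihood test). Tmbim6, an ER membrane protein that protects from cell death, was at -0.28 and lower in all Bmal1KO libraries, and Creb3l1, an ATF6-like factor, at -0.38 with overlap.

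Folding systems outside the ER were set beside these genes. Of 19 cytosolic heat shock genes tested, 7 were higher and 12 lower in Bmal1KO, with a median log2 fold change of -0.04. Groups did not overlap for 3 of the 19 (15.8%), all 3 lower in Bmal1KO, against 15.7% of all genes tested. The small heat shock genes Hspb1, at 53.2, 58.2 and 60.8 CPM in Bmal1KO and 105, 76.4 and 69.7 CPM in Bmal1WT, and Cryab were lower in all Bmal1KO libraries, by log2 fold changes of -0.54 (SE 0.19) and -0.64 (SE 0.24). The cochaperone Stip1, at -0.40, overlapped. Of 10 mitochondrial chaperones and proteases, 0 were higher and 10 lower, with a median of -0.23, and 3 did not overlap between groups (30%, against 15.7% of all genes tested). Adipocyte markers lay on the same side, with 16 of 17 lower in Bmal1KO (median -0.37), as did the 15 endothelial markers, and their part in these levels was not tested. Trap1, the mitochondrial Hsp90, stood at 156, 159 and 141 CPM in Bmal1KO and 190, 208 and 206 CPM in Bmal1WT (log2 fold change -0.41, SE 0.15; adjusted p = 0.458, edgeR's quasi-likelihood test). Lonp1, a protease, was at -0.50 with overlap and Dnaja3, an Hsp40, at -0.29 and lower in all Bmal1KO libraries. None of these genes passed the test.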

How the data were processed

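From 2 ng of whole-tissue RNA in each of 6 samples, oligo(dT)-primed cDNA was amplified, cut with Nextera XT and read as pairs of 38 bp, per the labels' protocols. Such libraries carry neither strand nor molecular identifiers. The deposited counts per gene symbol were, per the submitters' processing notes, made by the authors with STAR 2.7.3a, mm10 and featureCounts. Annotation and strand setting: not given in the sources used here.

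Counts were tested as deposited with edgeR 4.0.16 in R 4.3.3: filterByExpr (13859 genes kept of 55011, of which 20494 had no count), TMM, robust quasi-likelihood F-test without covariates, and Benjamini-Hochberg adjustment with a threshold of 0.05. CPM are TMM-scaled. Differences by library use log2 CPM with a prior count of 2. The steps were tested on simulated counts. Members, lists and alternatives were chosen with earlier results of these data known. All 32 members are named, and from each other list the 3 genes of smallest unadjusted p; marker genes are named as examples of their list. Coordinates and union exon lengths come from GENCODE M21 (mm10), in which Ddit3 has 2 gene IDs, pooled here. Promoter windows come from RefSeq (GRCm38.p6). Alternatives were other scalings, DESeq2 1.42.0, limma 3.58.1 voom, other filters, a replicate block and leaving out libraries. Same-numbered samples of the groups correlated at -0.0695, 0.0942 and -0.0305 in their deviations from the group mean. Differently numbered samples correlated at -0.0848 to 0.114. With means of 3 libraries, these values cannot tell whether the numbers pair samples, and the labels do not state it. Common dispersion was 0.0944.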

Additional observations from a re-analysis of the deposited data

How the results depend on the processing

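None of the 32 genes had an adjusted p under 0.05 in any alternative run. At 0.1, none did with the filter used here, while Derl3 had an adjusted p of 0.077 in edgeR's quasi-likelihood test without a filter. Genes called among all tested numbered 0 with edgeR, 60 with DESeq2, 186 without a filter and 0 with limma voom, and ran from 0 to 156 when libraries were left out, the most without Bmal1KO replicate 1 (61 without both replicates 1). With a replicate block, 0 genes were called (1121 at an unadjusted p under 0.05), and it changed no call. Library size alone as scaling moved the median log2 fold change of all genes from 0.02 to 0.11 and that of the 32 genes from 0.02 to 0.11, with 24 higher and 8 lower in place of 17 and 15. Over the larger sets of genes tested there, the all-gene median was 0.47 with DESeq2 and 0.46 without a filter, against 0.0028 and -0.0031 for the 32 genes. Under library size alone the log2 fold changes of 7 genes turned to 0.054 (Calr), 0.061 (Ddit3), 0.051 (Derl1), 0.012 (Derl2), 0.082 (Dnajc3), 0.062 (Edem1) and 0.026 (Xbp1). With limma voom Ddit3 turned to 0.011, and Sel1l turned to -0.0018 with DESeq2 and -0.0091 without a filter. The cause of these turns was not tested.

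Leaving out libraries turned the sign of 21 genes in all, none of them called, while 11 of the 32 kept their sign under all 14 alternatives. The log2 fold changes then ran from -0.34 to 0.32 for Hspa5, -0.37 to 0.21 for Pdia3, -0.054 to 0.53 for Pdia4, -0.32 to 0.11 for Pdia6, -0.12 to 0.18 for Calr, -0.015 to 0.30 for Canx and -0.096 to 0.67 for Sdf2l1. They ran from -0.0033 to 0.29 for Dnajb11, -0.11 to 0.086 for Dnajc3, -0.17 to 0.50 for Creld2, -0.20 to 0.49 for Manf, -0.11 to 0.020 for Edem1, -0.076 to 0.11 for Sel1l, -0.10 to 0.011 for Derl1 and -0.14 to 0.0070 for Derl2. They ran from -0.24 to 0.075 for Xbp1, -0.062 to 0.23 for Eif2ak3, -0.15 to 0.27 for Ddit3, -0.20 to 0.62 for Chac1, -0.24 to 0.11 for Ppp1r15a and -0.0043 to 0.48 for Sesn2. The 6 genes without overlap kept their sign, at -1.29 to -0.58 for Trib3, -0.54 to -0.24 for Asns, 0.20 to 0.30 for Atf4, 0.29 to 0.59 for Atf6, -0.41 to -0.17 for Herpud1 and 0.18 to 0.37 for Syvn1. Groups that do not overlap stay apart when libraries are left out. These fits could therefore hardly turn the sign of those 6 genes, and the kept sign adds nothing to the lack of overlap.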
